A study of Mus musculus with 10 samples.

Results

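Clusters 7 and 8 are groups of single cells picked from the paraventricular hypothalamus (PVH) of mice, known by number in the authors' cluster table. They are called somatostatin clusters here because they had the highest means of *Sst*, the gene of somatostatin, among the 12 PVH clusters. The comparison described here took every cell numbered 7 or 8 in that table and used the plates with at least 3 cells of each cluster, which were Q5, Q6, Q7 and Q8. It covers 56 cells, 16 of cluster 7 and 40 of cluster 8, of 706 cells in all. Over all 10 plates cluster 7 held 35 cells and cluster 8 held 42. All plates had 1 condition, so the question is how the clusters differ, and nothing here compares treatments.

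The cells came from male offspring of Agrp-IRES-Cre mice crossed with the Ai9 tdTomato reporter, older than 7 weeks. Cre in this line follows *Agrp*, the gene of agouti-related peptide neurons, whose axons the study used to see the edge of the PVH. The labels call the picked cells labelled neurons, which differs from that description. Slices had been kept in neuronal activity blockers and pronase before picking, and the cells of a plate were amplified as a pool. The animals behind each plate are not given in the sources used here, so p-values measure the spread between plates, which may share animals.

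Somatostatin is a peptide that neurons release as a transmitter and that hypothalamic neuroendocrine neurons release to hold back growth hormone from the pituitary. Neurons make it from a precursor encoded by *Sst*, and cyclic AMP signalling acts on this gene through a cyclic AMP response element. The PVH is otherwise best known for oxytocin, vasopressin, corticotropin-releasing hormone and thyrotropin-releasing hormone neurons. The Sst gene lies on chromosome 16 from 23889573 to 23891342 (RefSeq, GRCm38.p6). The promoter window runs from 250 bases before to 50 bases after a start inside that span. This start is not the outer end of the span on the minus strand, and the whole window lies within the span. The window is shown because *Sst* is the gene that names both clusters. It runs over chr16:23890795-23891094 on the minus strand, 5′ to 3′, and capitals mark the only match to the element, TGACGTCA, which reads the same on both strands. Of 32851 RefSeq promoter windows of this length, 588 (1.79%) held these letters.
Sst promoter: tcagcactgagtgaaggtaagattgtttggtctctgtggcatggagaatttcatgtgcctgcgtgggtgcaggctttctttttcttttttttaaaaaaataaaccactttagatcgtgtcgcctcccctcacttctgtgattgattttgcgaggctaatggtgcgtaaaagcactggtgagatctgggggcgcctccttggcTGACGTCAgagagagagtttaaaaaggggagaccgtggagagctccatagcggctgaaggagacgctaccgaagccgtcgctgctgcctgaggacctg

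The clusters were made by the authors from the same cells, so a difference between them says how steady it is over plates and is not independent evidence that they are separate types. UMIs (unique molecular identifiers, which mark reads from 1 captured transcript) were summed per plate and cluster, and levels are given as CPM, which are UMIs scaled to a common total per sum. Each sum held 554854 to 2919968 UMIs. Rarely detected spike-ins, present in 2% to 25% of cells, carried 28.0 ± 4.40 UMIs (SD, n = 4 plates) for each captured molecule, so a value of a few UMIs is less than what 1 captured molecule gave on average.

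Cluster 7 had cells on plates of all 3 name prefixes, whereas cluster 8 was found mainly on the Q plates. On plates Q5, Q6, Q7 and Q8 cluster 7 held 5, 3, 4 and 4 cells, and cluster 8 held 3, 8, 13 and 16. As a share of PVH cells, cluster 7 made up 5.18% ± 0.782 (SD over 4 plates) with the prefix Q and 5.93% ± 4.78 (SD over 6 plates) with the prefixes AL and JM. For cluster 8 the shares were 13.1% ± 7.30 and 0.505% ± 1.24 over the same plates. Outside the Q plates, cluster 8 had 2 cells, both on plate JM8. The letters are prefixes of the plate names, the labels do not say what they stand for, and whether the prefix sets the share of cluster 8 was not tested.

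*Sst* itself was higher in cluster 7 on each plate. In cluster 7 it stood at 25102, 21310.4, 27199 and 14922 CPM on plates Q5 to Q8, and in cluster 8 at 13002, 8853, 3339 and 13569.5 CPM. No plate of cluster 8 reached the lowest plate of cluster 7, but on plate Q8 the values were close. The log2 fold change of cluster 8 over cluster 7 was -1.34 ± 0.52 (SE, n = 4 plates, edgeR quasi-likelihood test, adjusted p = 1). It did not pass the threshold of an adjusted p under 0.05 in this fit or in DESeq2 (adjusted p = 0.137), and without plate Q7 the log2 fold change was -0.78.

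The lower level in cluster 8 came with a wide spread among its cells. All 16 cells of cluster 7 held at least 4867 CPM of *Sst*, with a median of 24574. In cluster 8 the median was 7305 CPM, and 11 of 40 cells held at most 508 CPM, below a gap that reached to 3153 CPM. The 11 cells were spread over all 4 plates, with 1 on Q5, 1 on Q6, 6 on Q7 and 3 on Q8. In the 251 cells of the other PVH clusters on these plates the median was 13.1 CPM and 236 cells had a UMI, so presence of a UMI does not mark a somatostatin cell here. Of these 251 cells, 8 held over 1000 CPM, the highest 9660 CPM.

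**Figure D1:**
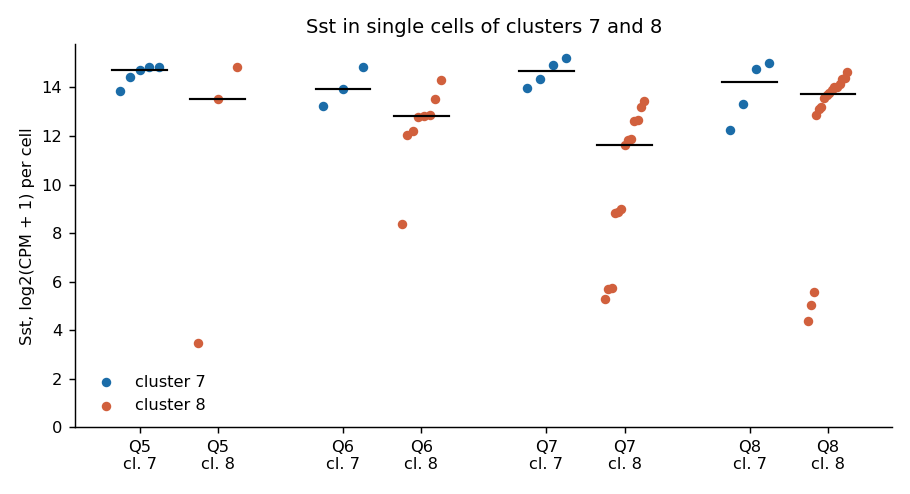
*Sst* per cell as log2(CPM + 1), by plate and cluster (abbreviated cl.), with a bar at the median of each set of cells. The 16 cells of cluster 7 sit high on every plate, and 11 of the 40 cells of cluster 8 lie apart below the rest.

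The 11 cells with little *Sst* carried other peptide genes more often. *Gal*, the gene of galanin, had at least 10 UMIs in 8 of the 11 and in 3 of the other 29 cells of cluster 8. *Trh*, the gene of thyrotropin-releasing hormone, did so in 5 of 11 and 0 of 29, and *Penk*, the gene of proenkephalin, in 3 of 11 and 0 of 29. *Syt1* had 10 UMIs or more in 6 of 11 and 29 of 29, and *Prdm8* in 5 of 11 and 22 of 29. *Calb1* did so in 8 of 11 and 13 of 29, and *Fos* in 11 of 11 and 25 of 29. These cells were set apart after their values were seen, so the counts are a description with no test.

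*Aldh1a1*, which encodes a retinaldehyde dehydrogenase that makes retinoic acid, was close to absent from cluster 8. Its level was 82.1, 259, 307 and 34.1 CPM in cluster 7 on plates Q5 to Q8, and 0, 20.2, 0 and 0 CPM in cluster 8. Only plate Q6 of cluster 8 had any UMI, all 28 of them in 1 cell, and it stayed below every plate of cluster 7. The gene was detected in 14 of 16 cells in cluster 7, against 1 of 40 in cluster 8. The fitted difference on the log2 scale was -7.41 ± 1.53 (SE, n = 4 plates, edgeR adjusted p = 0.823), and DESeq2 gave an adjusted p of 0.00615. The gene spans 20492583 to 20643463 of chromosome 19 (RefSeq, GRCm38.p6). Over all plates its mean was highest in cluster 7 among the 12 PVH clusters, and it was so on the Q plates too.

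*Npy1r*, the Y1 receptor for neuropeptide Y, was higher in cluster 7 on 4 of 4 plates. It stood at 45.8, 168, 188 and 254 CPM in cluster 7 and at 30.6, 60.6, 20.2 and 68.5 CPM in cluster 8. The groups overlapped, because plate Q5 of cluster 7 lay below plates Q6 and Q8 of cluster 8. The fitted difference on the log2 scale was -1.81 ± 0.69 (SE, n = 4 plates, edgeR adjusted p = 1, DESeq2 adjusted p = 0.0451). It was detected in 13 of 16 cells in cluster 7, against 14 of 40 in cluster 8. Taking at least 3 UMIs, 10 of 16 cells of cluster 7 held both *Aldh1a1* and *Npy1r*, against 1 of 40 cells of cluster 8, and 1 of 16 and 27 of 40 held neither. Over all plates *Npy1r* averaged 140 CPM in cluster 7 (85.7% of cells) and 106 CPM in cluster 13 (87.5% of cells). On the Q plates cluster 15 averaged 49.7 CPM over 3 plates, beside 45.0 CPM in cluster 8 over 4 plates.

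*Prdm8*, a gene for a transcriptional regulator of neurons, was shared by both clusters. Its level was 777, 828, 1021 and 868 CPM in cluster 7 and 676, 1127, 345 and 837 CPM in cluster 8, and the groups overlapped. The log2 fold change was -0.35 ± 0.31 (SE, n = 4 plates, edgeR adjusted p = 1), and it was 0.07 without plate Q7. It was detected in 16 of 16 cells in cluster 7, against 28 of 40 in cluster 8. On the Q plates clusters 7 and 8 had the highest means of the 8 PVH clusters with sums there, and cluster 15 came next at 212 CPM over 3 plates, before cluster 10 at 104 CPM over 4 plates.

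**Figure D2:**
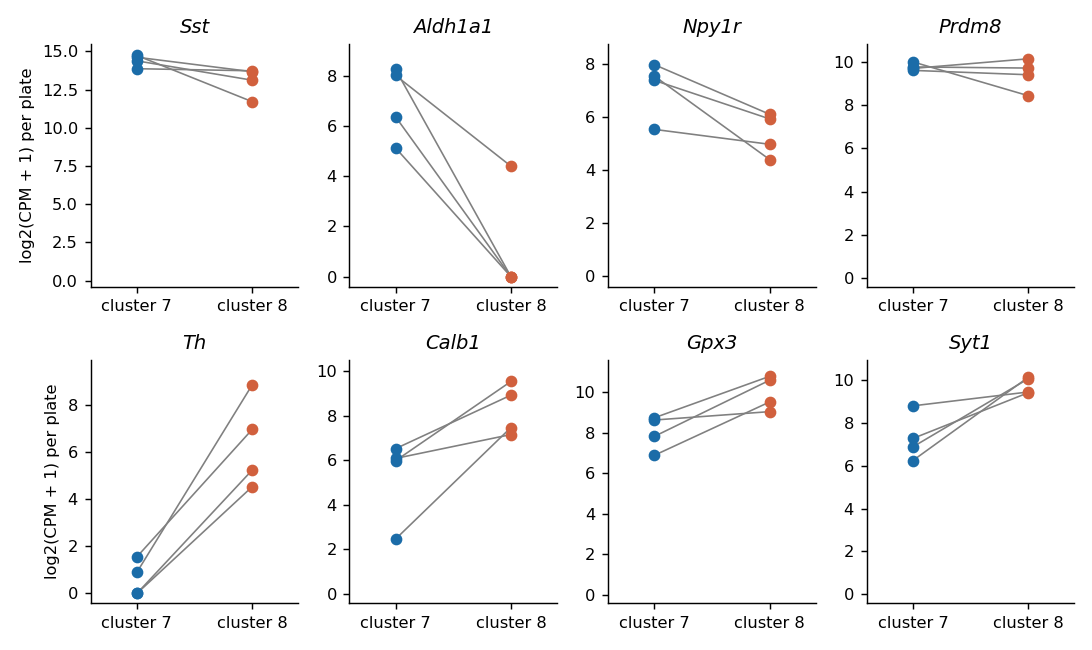
Level of 8 genes in cluster 7 and cluster 8 as log2(CPM + 1) per plate, with a line joining the sums of a plate. *Aldh1a1* is lower and *Th*, *Calb1*, *Gpx3* and *Syt1* are higher in cluster 8 on each of the 4 plates, while *Prdm8* crosses.

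Across the 7425 genes tested no gene passed an adjusted p under 0.05 in the edgeR fit (0%). At an unadjusted p under 0.05, 83 genes (1.12%) were higher in cluster 7 and 132 (1.78%) in cluster 8. DESeq2 gave 7137 genes an adjusted p and called 48 (0.673%) higher in cluster 7 and 103 (1.44%) in cluster 8. On counts simulated from these sums with 4 plates, however, DESeq2 called 86 of 6277 genes made without a change, which was 41.5% of its calls, and edgeR called 9 of 6277, which was 8.49% of its calls. The simulated counts had no plate effect, and 84 genes were changed by 3 log2 units and 81 by 5. These shares of calls depend on how many genes were changed, so they do not carry over to the calls on the real sums. A DESeq2 call is given beside a gene as a value and not as a passed test. By plates alone, 394 genes (5.31%) were higher in cluster 7 on 4 of 4 plates and 618 (8.32%) in cluster 8. Every plate of cluster 7 lay above every plate of cluster 8 for 81 genes (1.09%), and the other way round for 142 (1.91%). The filter on low counts could be passed through the sums of either cluster alone, so the direction of a gene nearly absent from the other cluster was partly set by it. The genes below were named after their values were seen, unless a list fixed them.

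**Figure D3:**
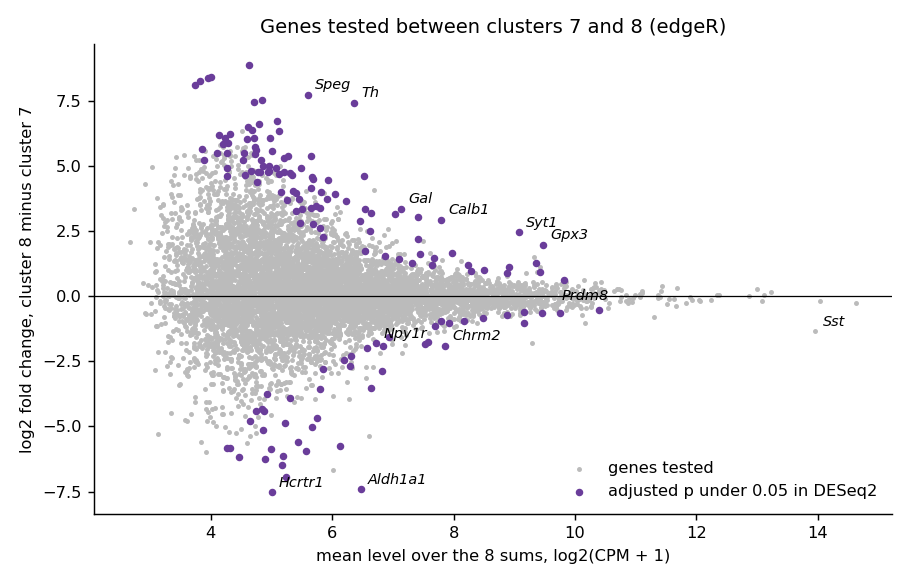
Log2 fold change of cluster 8 over cluster 7 (edgeR) against the mean level over the 8 sums, for the 7425 genes tested, with genes of an adjusted p under 0.05 in DESeq2 in purple. *Th* lies above 7 and *Aldh1a1* and *Hcrtr1* lie below -7, while *Prdm8* lies near 0.

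*Th*, which encodes tyrosine hydroxylase, the first enzyme of dopamine synthesis, had the lowest p of all genes tested in the edgeR fit. It stood at 0.864, 0, 1.94 and 0 CPM in cluster 7 and at 463, 36.8, 124 and 22.2 CPM in cluster 8, so the groups did not overlap. On the log2 scale the fold change was 7.41 ± 1.21 (SE, n = 4 plates, edgeR adjusted p = 0.520, DESeq2 adjusted p = 1.88e-09). Cluster 7 held only 4 UMIs of it in all, so the size of the fold change is loosely set. The level of cluster 8 rested on few cells, since 10 of 40 had a UMI and 5 had at least 10. Those with at least 10 were 2 of the 11 cells with little *Sst* and 3 of the other 29. On plates Q5 and Q7 the highest cells held 1316 and 1208 CPM of *Th*, with 10.3 and 50.6 CPM of *Sst*. No other cell of cluster 8 on these plates held more than 5.35 CPM of *Th*. *Ddc*, the next enzyme of the same path, stood at 62.7 ± 43.7 CPM in cluster 7 and 19.5 ± 16.6 CPM in cluster 8 (SD, n = 4 plates), with an adjusted p of 1 in edgeR. Other PVH clusters held *Th* too, and on the Q plates cluster 9 had a mean of 284 CPM over 3 plates and cluster 1 of 225 CPM over 4 plates.

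*Calb1*, the gene of the calcium buffer calbindin, was higher in cluster 8 without overlap. Its level was 90.7, 4.51, 62.0 and 66.7 CPM in cluster 7 and 483, 176, 739.7 and 141 CPM in cluster 8. On plate Q5 the level of cluster 8 rested on a single cell with 10.3 CPM of *Sst*, which held 1357 CPM of *Calb1*. The others there held 11.9 and 10.4 CPM, below cluster 7 on that plate. On the log2 scale the fold change was 2.93 ± 0.62 (SE, n = 4 plates, edgeR adjusted p = 0.823, DESeq2 adjusted p = 1.27e-04). It was detected in 9 of 16 cells in cluster 7, against 35 of 40 in cluster 8, and on the Q plates the highest means among PVH clusters were in clusters 9, 1 and 10.

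*Syt1*, the calcium sensor of synaptic vesicle release, had its highest mean on the Q plates, among the 8 PVH clusters with sums there, in cluster 8. It stood at 153, 74.5, 440.2 and 116 CPM in cluster 7 and at 674, 1111, 689.7 and 1059 CPM in cluster 8, without overlap. The log2 fold change was 2.46 ± 0.48 (SE, n = 4 plates, edgeR adjusted p = 0.772, DESeq2 adjusted p = 0.0178). Its mean in cluster 8 was 883 ± 234 CPM (SD, n = 4 plates), and the next mean on these plates was that of cluster 1, at 415 CPM over 4 plates. Of the 21 genes of the release machinery tested, 11 lay above 0 and 10 below, with a median of 0.15 beside 0.09 over all genes tested.

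*Gpx3*, which encodes a secreted glutathione peroxidase, stood at 223, 391, 422 and 116 CPM in cluster 7 and at 1528, 522, 1747 and 727 CPM in cluster 8. The groups did not overlap, and the log2 fold change was 1.97 ± 0.37 (SE, n = 4 plates, edgeR adjusted p = 0.772, DESeq2 adjusted p = 2.72e-05). The median over the 251 cells of the other PVH clusters was 1149 CPM, against 206 CPM in cluster 7 and 712 CPM in cluster 8. *Speg*, a gene for a kinase known from striated muscle, stood at 0, 0, 1.29 and 0 CPM in cluster 7 and at 189, 98.0, 37.0 and 53.3 CPM in cluster 8, where 17 of 40 cells had it. In cluster 7, 2 of 16 cells had a UMI of *Speg* on the Q plates, and 7 of 35 did over all plates. *Elavl2*, a neuronal RNA-binding protein, stood at 49.2, 1.13, 32.9 and 48.1 CPM and 328, 146, 324 and 111 CPM, again without overlap.

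The immediate early genes, which neurons switch on within minutes of activity or stress, lay above 0 in cluster 8 for each of the 10 tested of 20 listed. None passed an adjusted p under 0.05 in edgeR, 5 had an unadjusted p under 0.05 (1.78% of all genes tested did in that direction), and the same number had an adjusted p under 0.05 in DESeq2 (1.44%). Over all genes tested, 3999 lay above 0 and 3426 below. The median log2 fold change of the 10 was 1.76, beside 0.09 over all genes tested, and 6 were higher in cluster 8 on 4 of 4 plates (8.32% of all genes tested were). Genes close to 0 in most cluster 7 sums, such as *Egr1*, could enter the test through cluster 8 alone. Their side was then partly set by the filter on low counts, so these counts are a description. *Fos* stood at 118, 475, 735 and 369 CPM in cluster 7 and at 752, 855, 1241 and 701 CPM in cluster 8, so it was higher on each plate but overlapped. *Junb* stood at 2.59, 15.8, 116 and 80.6 CPM and 400.1, 188, 366 and 186 CPM, and *Btg2* at 35.4, 0, 0 and 34.1 CPM and 258, 182, 40.4 and 179 CPM, both without overlap.

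*Egr1* and *Fosl2* had log2 fold changes of 5.37 ± 1.93 and 4.15 ± 1.88 (SE, n = 4 plates). *Fosb*, *Jund*, *Npas4* and *Dusp1* lay between 0.15 and 2.27 with unadjusted p-values of 0.279 or more in edgeR (Fosb 0.279). *Fos* was detected in 15 of 16 cells in cluster 7, against 38 of 40 in cluster 8, shares that were close. Over the 251 other PVH cells the median of *Fos* was 347 CPM, against 304 CPM in cluster 7 and 759 CPM in cluster 8. High levels were not particular to cluster 8, since cluster 10 had higher means on the Q plates. These were 1314 against 887 CPM for *Fos* and 593 against 285 CPM for *Junb*. For *Btg2* they were 420 against 165 CPM, and for *Egr1* 214 against 83.0 CPM. Of 12 heat shock and stress genes tested, 7 lay above 0 and 5 below. The part of slicing, incubation and picking in these levels was not tested.

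Of 40 neuropeptide receptor genes listed, 8 were high enough to be tested, and 6 of the 8 lay below 0 (towards cluster 7), as did 3426 of the 7425 genes tested. On 4 of 4 plates 5 of the 8 were higher in cluster 7 (5.31% of all genes tested were), and 3 had an unadjusted p under 0.05 in that direction (1.12% of all genes tested did), while none passed the adjusted threshold in edgeR. Genes close to 0 in most cluster 8 sums, such as *Hcrtr1* and *Mc4r*, could enter the test through cluster 7 alone. Their side was then partly set by the filter, so these counts are a description. *Hcrtr1*, the orexin receptor 1, stood at 37.1, 95.9, 82.0 and 31.0 CPM in cluster 7 and at 0, 0, 0 and 2.72 CPM in cluster 8, without overlap. On these Q plates 10 of 16 cells of cluster 7 had a UMI of *Hcrtr1*, against 2 of 40 of cluster 8. Of the 251 other PVH cells on the same plates, 3 had one. Over all plates the gene was not confined to cluster 7, which averaged 107 CPM with 71.4% of its cells detected. Cluster 14 averaged 41.4 CPM (29.8% of cells) and cluster 12 averaged 31.6 CPM (34.3% of cells). The remaining PVH clusters averaged at most 11.4 CPM. Fitted over the plates, the log2 fold change was -7.54 ± 2.36 (SE, n = 4 plates, edgeR adjusted p = 1, DESeq2 adjusted p = 6.22e-04).

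*Mc4r*, the melanocortin receptor 4 that binds agouti-related peptide, stood at 77.7, 65.4, 74.9 and 57.4 CPM in cluster 7 and at 0, 0.721, 63.0 and 0.389 CPM in cluster 8. Plate Q7 of cluster 8 was the exception, where it came close to cluster 7. *Galr1*, a galanin receptor, and *Oprl1*, the nociceptin receptor, were also higher in cluster 7 on each plate, with log2 fold changes of -2.17 ± 1.06 and -0.96 ± 0.79 (SE, n = 4 plates). *Chrm2*, the muscarinic receptor 2, stood at 143, 309, 173 and 856 CPM and 109.9, 60.6, 33.9 and 167 CPM, higher in cluster 7 on each plate but with overlap.

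**Figure D4:**
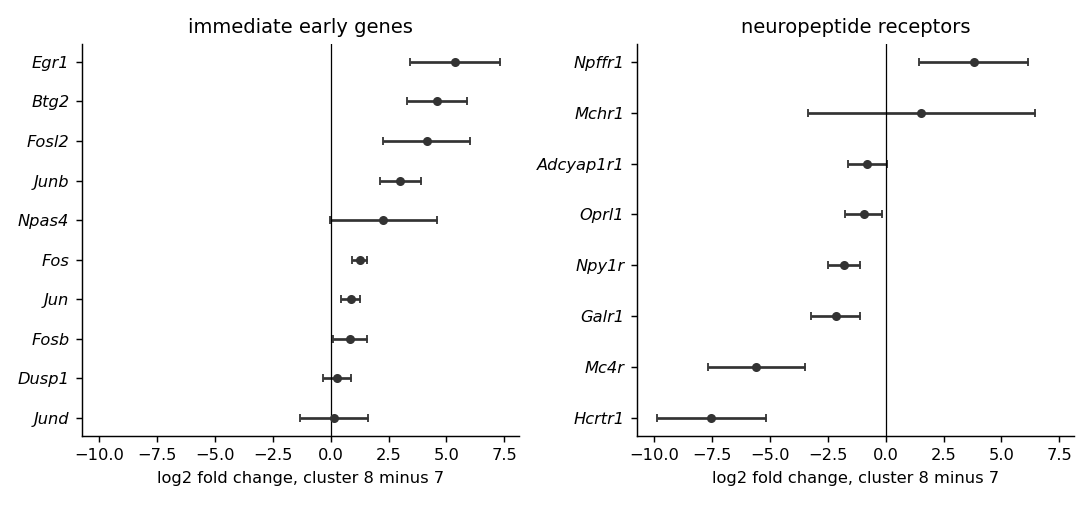
Log2 fold change of cluster 8 over cluster 7 with its SE (edgeR, 4 plates) for the tested immediate early genes (left) and neuropeptide receptors (right). The 10 immediate early genes lie above 0, and 6 of the 8 receptors lie below 0.

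Retinoid genes other than *Aldh1a1* were mostly too low to test, with 4 of 19 in the fit. *Rxra*, a retinoid X receptor, stood at 71.7, 84.6, 173 and 110.1 CPM in cluster 7 and at 0, 9.37, 80.8 and 36.6 CPM in cluster 8, and *Rbp4*, the retinol-binding protein of serum, at 255, 0, 469 and 24.8 CPM and 0, 0, 4.11 and 21.8 CPM. *Rxra* was lower in cluster 8 on each plate and *Rbp4* on 3 plates, since neither cluster had it on plate Q6, and both overlapped. *Rxrg* lay the other way, with a log2 fold change of 1.42 ± 1.43 (SE, n = 4 plates, edgeR adjusted p = 1).

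The lists of receptors and channels for fast transmission did not all lie on one side, and 3999 of the 7425 genes tested lay above 0 (towards cluster 8). Of 40 GABA and glutamate receptor genes listed 23 were tested, 16 lay above 0 and 4 were higher in cluster 8 on 4 of 4 plates (8.32% of all genes tested were), while none was higher in cluster 7 on all plates (5.31% were). Their median log2 fold change was 0.67, beside 0.09 over all genes tested. Of 57 potassium channel genes listed 22 were tested, and 16 lay above 0, 5 of the 22 being higher in cluster 8 on 4 of 4 plates and 1 in cluster 7. Of 42 sodium, calcium, HCN and TRP channel genes listed 20 were tested, and 7 lay above 0 and 13 below, with a median of -0.32. *Kcnv1*, which encodes a silent potassium channel subunit, was higher in cluster 7 on each plate, at 101, 174, 67.8 and 29.5 CPM in cluster 7 and 0, 5.77, 0.685 and 18.7 CPM in cluster 8. None of these lists had a gene with an adjusted p under 0.05 in edgeR.

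Both clusters held the glutamate transporter of PVH neurons, and neither held that of GABA neurons. *Slc17a6*, the vesicular glutamate transporter of these neurons, was detected in 13 of 16 cells in cluster 7, against 26 of 40 in cluster 8, at 118 ± 83.5 and 86.4 ± 86.6 CPM (SD, n = 4 plates). *Slc32a1*, the vesicular GABA transporter, had no UMI in either cluster. *Gad2*, an enzyme that makes GABA, was detected in 0 of 16 and 5 of 40 cells, and 49 of its 54 UMIs in cluster 8 were in 1 cell, so it was too low for the test. *Sim1*, the transcription factor of PVH neurons, was detected in 11 of 16 and 13 of 40 cells.

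Among the other peptides, *Gal* was higher in cluster 8 on each plate, at 117, 7.90, 27.8 and 1.55 CPM in cluster 7 and 279, 55.5, 508 and 124 CPM in cluster 8. The groups overlapped, and *Gal* was detected in 17 of 40 cells of cluster 8. At least 10 UMIs of it were in 8 of the 11 cells with little *Sst* and in 3 of the other 29. On plates Q5 and Q6 the highest cells of cluster 8, at 781 and 382 CPM, held 10.3 and 327 CPM of *Sst*. Its other cells there held at most 17.8 and 4.56 CPM of *Gal*, so the higher level on these plates rested on cells with little *Sst*. *Cartpt*, the gene of the CART peptide, stood at 1042, 1402, 754 and 1107 CPM in cluster 7 and at 114, 522, 3731 and 468 CPM in cluster 8, where 1 cell held 9248 of 12883 UMIs. *Oxt* and *Avp* had UMIs in every cell of both clusters, at medians of 290.2 and 207 CPM for *Oxt*, and the lowest of the 251 other PVH cells also held 96.8 CPM. In cluster 8, 2 of 40 cells held over 1000 CPM of *Oxt*, the highest 9452 CPM. The source of the levels found in every cell was not tested, so they are not read as expression by these clusters.

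Defining markers of other cell types were absent for some types and present at low levels for others. The 5 microglia markers had no UMI in either cluster. Of the 3 endothelial markers *Cldn5* and *Flt1* had none, and the list summed to 0 CPM in cluster 7 and 0.389 to 15.9 CPM in cluster 8, all of it *Pecam1*. Of the 5 astrocyte markers *Agt* alone had UMIs, at 0 to 23.3 CPM in cluster 7 and 0 to 2.74 CPM in cluster 8. The 5 oligodendrocyte markers summed to 1.13 to 146 CPM in cluster 7 and 0 to 16.7 CPM in cluster 8, and *Olig2* and *Mog* were at 0 in both. The 4 markers of ependymal cells and tanycytes summed to 0 to 4.65 CPM and 27.2 to 144 CPM, with *Ccdc153* and *Rax* at 0 in both. In cluster 8 the lowest and highest of these sums were *Col23a1* alone. That gene stood at 144, 29.6, 64.7 and 27.2 CPM there, in 14 of 40 cells and without overlap with cluster 7. The 4 markers of GABAergic or arcuate neurons summed to 34.9 to 161 CPM in cluster 7 and 20.9 to 60.3 CPM in cluster 8, with *Slc32a1* and *Npy* at 0 in both, and *Pomc*, the gene of pro-opiomelanocortin, stood at 40.6, 152, 34.9 and 41.9 CPM in cluster 7 and 0, 20.9, 60.3 and 34.2 CPM in cluster 8. Several of these sums reach the level of *Aldh1a1* or *Npy1r* in cluster 7, and their part in the differences was not tested.

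The cells of cluster 8 yielded less RNA on each plate. Gene UMIs per spike-in UMI, a measure of RNA per cell, had plate medians averaging 9.66 ± 2.40 in cluster 7 and 6.04 ± 0.877 in cluster 8 (SD, n = 4 plates), with cluster 8 below cluster 7 on every plate. An exact paired permutation test over these plates (two-sided) gave its smallest attainable p, which is above the threshold, and 0.208 after Benjamini-Hochberg adjustment over 5 measures. Total UMIs averaged 257324 ± 104223 and 181911 ± 15485, and genes detected 5075 ± 811 and 4223 ± 296, both lower in cluster 8 on each plate with the same exact p. Without plate Q7 the mean difference in total UMIs (cluster 8 minus cluster 7) was -26971, against -75413 with it. After thinning every cell to 112246 UMIs, which left out 6 of the 56 cells, genes detected averaged 4632 ± 604 and 3987 ± 213. The mitochondrial share was 3.89% ± 0.157 and 3.63% ± 0.301 (exact p = 0.25). Whether depth moves the gene differences was not tested beyond the thinned fit.

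**Figure D5:**
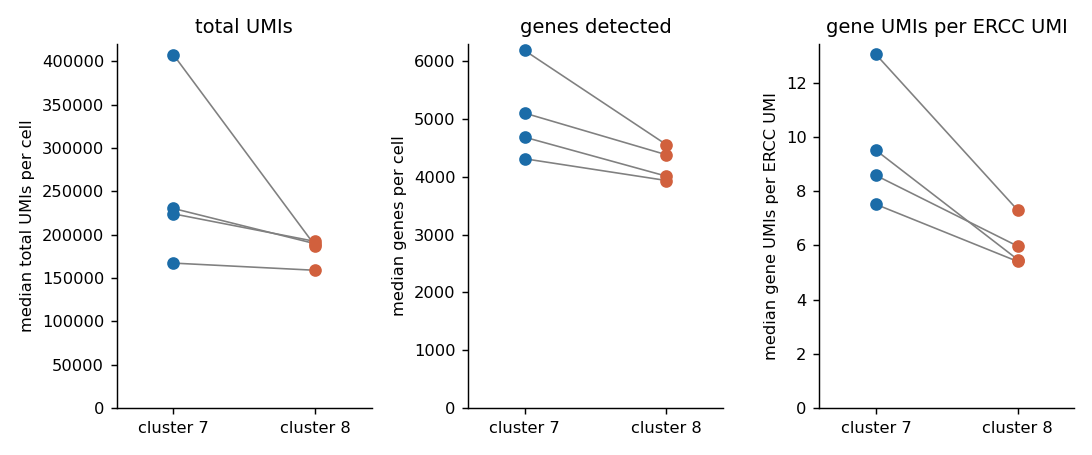
Plate medians of total UMIs per cell, genes detected per cell and gene UMIs per ERCC spike-in UMI in clusters 7 and 8, with a line joining the medians of a plate. All 3 are lower in cluster 8 on each of the 4 plates.

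The cells of cluster 7 on plates that did not enter the comparison give its levels of the same genes a second reading. Those plates held nearly no cells of cluster 8, so they do not read the difference again. On 4 AL and JM plates with at least 3 cells each, *Aldh1a1* averaged 198 ± 47.5 CPM, *Npy1r* 117 ± 34.8 CPM and *Hcrtr1* 153 ± 69.6 CPM (SD, n = 4 plates). *Th* averaged 6.0 ± 10.2 CPM and *Gpx3* 228 ± 97.1 CPM there, and *Sst* 6448 ± 3082 CPM, below its level on the Q plates. This mean of *Sst* in cluster 7 was also below the mean of cluster 8 on the Q plates, 9691 CPM. The 2 cells of cluster 8 on plate JM8 summed to 2589.8 CPM of *Sst*, 0 of *Aldh1a1*, 120.3 of *Npy1r*, 671 of *Syt1*, 475 of *Gpx3* and 0 of *Th*. A sum over 2 cells has no error.

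By presence alone, genes on in over 40% of the cells of one cluster and off in under 5% of the other were few. Over all plates 4 genes were on in cluster 7 and off in cluster 8, *Aldh1a1*, *Hcrtr1*, *Lyz2* and *Gm26384*, and 0 genes were on in cluster 8 and off in cluster 7. *Gm26384* had no UMI in either cluster on plates Q5 to Q8, so it rested on the AL and JM plates, which held nearly no cells of cluster 8, and there plate and cluster cannot be told apart. On the Q plates alone *Aldh1a1* again met both limits. When the cells of each plate were compared with the cluster means of the other plates, 15 of 16 cells of cluster 7 and 34 of 40 of cluster 8 lay nearer to their own. The authors made the clusters from these cells, those of the left-out plate included, so these counts are a description and cannot test the split.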

How the data were processed

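Single PVH cells on 10 plates were profiled with Smart-SCRB chemistry. The authors deposited raw UMI counts per gene and cell for 48397 genes and 92 spike-ins, with a table of cluster numbers, and their processing notes name Trimmomatic 0.36, STAR 2.5.3a and GRCm38.p5. The labels and the methods differ on sequencer and kit. Cells of 53701 to 545732 UMIs were summed per plate and cluster. The plate was the replicate and a block, since both clusters of a plate shared a pooled library, and replicates are numbered 1 to 4 for Q5 to Q8. The members and lists were chosen with earlier results of these data known.

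Sums were tested with edgeR 4.0.16 (TMM, filterByExpr, robust quasi-likelihood F test, Benjamini-Hochberg adjustment) under R 4.3.3. DESeq2 1.42.0, limma 3.58.1, other filters, scalings, depths and plates were alternatives. The count tests were checked on simulated data: of 84 genes changed 3 log2 units edgeR called 35, and of 81 changed 5 units it called 62. Sums and figures used Python 3.11.15, numpy 2.4.6, pandas 2.3.3, scipy 1.17.1 and matplotlib 3.10.9. Named genes were the markers, the genes the study names for single cells and, since none passed the threshold, those of lowest p or in the listed gene groups. Barcodes and cluster membership values were not used here, and values of a few genes are not reported here.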

Additional observations from a re-analysis of the deposited data

Results flagged for a closer look

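Of 96 sets of 4 plate values examined (43 genes and the cell measures, by cluster), 18 had 1 plate far from the other 3 by Dixon's ratio over 0.829. Chance flags about 1 set in 20, and a set with 3 plates at 0 is flagged by any UMI on the fourth. In cluster 8, plate Q7 stood high for *Trh* (2016 CPM), *Cartpt* (3731 CPM), *Penk* (379.8 CPM), *Pdyn* (163 CPM) and *Mc4r* (63.0 CPM), and it also held 6 of the 11 cells with little *Sst*. Plate Q8 of cluster 8 stood high for *Hcrtr1* (2.72 CPM), *Lyz2* (25.7 CPM) and *Gad2* (19.4 CPM), and its median total of UMIs was low (158902). Plate Q5 of cluster 8 stood high for *Oxt* (3693 CPM), and plate Q6 for *Aldh1a1* (20.2 CPM). In cluster 7, plate Q7 stood high for *Speg* (1.29 CPM), *Egr1* (59.4 CPM), *Pdyn* (0.645 CPM) and *Slc17a6* (242 CPM). Plate Q6 of cluster 7 stood high for *Penk* (29.3 CPM) and *Pomc* (152 CPM) and low for *Lyz2* (0 CPM).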

How the results depend on the processing

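The 0 genes called in either direction became 48 higher in cluster 7 and 103 in cluster 8 with DESeq2, 24 and 3 with limma on the mean over cells, 5 and 13 without the filter on low counts, and 0 and 33 with all 12 PVH clusters fitted together. Of the 151 DESeq2 calls, 8 were also called in the fit of all clusters. Without the filter the fit took the same spread for every gene of a given level (infinite prior degrees of freedom for 16819 genes, against a median of 8.23 in the filtered fit), so its p-values leave out each gene's own spread between plates. It gave *Sst* -1.31 (adjusted p = 4.59e-68) and *Aldh1a1* -7.49 (adjusted p = 2.31e-05), which are not read as calls. The adjusted p was also under 0.05 for *Aldh1a1* with DESeq2 (-8.32) and limma (-5.77) and for *Npy1r* with DESeq2 (-1.85), and the DESeq2 values are not read as passed tests. With no replicate block 0 genes were called, and *Sst* stood at -1.21.

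Leaving out each plate in turn gave 0 to 0 genes higher in cluster 7 and 0 to 1 in cluster 8, the 1 being *Gpx3* without replicate 2 (Q6). The log2 fold change ranged from -1.75 to -0.78 for *Sst* (the latter without Q7), -10.84 to -6.03 for *Aldh1a1*, -2.18 to -1.32 for *Npy1r* and -0.61 to 0.069 for *Prdm8*, which reversed without replicate 3 (Q7). The difference in spike-in UMIs ranged from -725 to 3688 and reversed without replicate 4 (Q8), and that in total UMIs ranged from -97786 to -26971, the latter without Q7. On the Q plates 4 genes in place of 2 were on in cluster 7 alone at 3 UMIs, and 2 in place of 0 in cluster 8 alone after thinning. *Sst* had a UMI in every cell of both clusters, so its fold change by cells detected was 0. At least 5 cells on each side left 0 plates and could not be run. *Gad2* was below the filter and had no value in the fit, while it stood at 4.54 without the filter (adjusted p = 1) and 5.21 with all clusters (adjusted p = 0.382). The other 99 of 116 values kept their direction and side of the threshold. Sums of 3 to 5 cells in cluster 7 limit what low genes can show. The cause of these changes was not tested.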
